A study of Mus musculus with 8 samples.

Results

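The cytosolic ribosomal proteins build the ribosomes that work outside mitochondria, and their mRNAs are among the most abundant in dividing cells. They were taken here as the gene symbols that begin with Rpl or Rps and continue with a number, or with p0, p1 or p2, and at most a short paralog suffix, together with Rpsa and Rps3a1 and without Rpl10l. This symbol rule used no expression value and found 87 of the 55418 genes counted, of which 53 name large subunit proteins and 34 name small subunit proteins. RNA-seq was done on 8 libraries of mouse E14 embryonic stem cells (ESCs), 2 for each of 4 conditions, to ask what the loss of Hira, Ubn1 or Ubn2 does to the transcriptome. Hira is the scaffold of the HIRA complex, a chaperone that places the histone variant H3.3 on chromatin outside replication, and Ubn1 and Ubn2 are related subunits of that complex. All cells, controls included, were wild-type E14 ESCs on gelatin with serum and LIF that were transfected with 1000 ng of the pSuper puro plasmid and given puromycin at 1 µg/ml from 24 h on for 3 days. The plasmid carried an shRNA against Hira, Ubn1 or Ubn2 in the depleted groups, while the study's methods name luciferase as the target of the control shRNA and give a different puromycin dose. These are transient knockdowns in pools of 1 cell line, and which of several shRNAs entered each library was not stated in the labels. The labels do not say that replicates came from separate cultures, so p-values measure the spread between these libraries only.

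A ribosome is built from ribosomal RNA and about as many different proteins as there are genes in this set, 1 copy of each per ribosome save for the acidic stalk proteins. Cells keep the amounts of these proteins close to one another, and unassembled ones are degraded. Their genes are transcribed by RNA polymerase II from strong promoters without much tissue specificity, and many host small nucleolar RNA genes in their introns. Their mRNAs typically begin with a run of pyrimidines at the 5′ end, the terminal oligopyrimidine motif, through which the mTOR pathway sets their translation. In ESCs, as in other fast-growing cells, much of transcription and translation is spent on ribosome production.

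Of the 87 genes, 83 were annotated as protein coding in GENCODE release M21 of GRCm38 and 4 (Rps4l, Rps12l1, Rpl32l and Rpl6l) as processed pseudogenes, meaning intronless copies of a mature mRNA. They lay on 19 chromosomes, with 15 on chromosome 7, and 30 of the coding genes held at least 1 annotated small nucleolar RNA gene. RefSeq start sites of GRCm38.p6 were given for 64 of them, 63 coding. Within 15 bases on each side of the start site, 25 of these 63 (39.7%) had an unbroken run of at least 8 C or T on the transcribed strand, against 11.6% of 16498 coding genes. On the other strand the shares were 3.17% and 12.7%. The windows of 6 members to which the results return are printed here, 5′ to 3′, with the longest pyrimidine run in capitals. They are Rps6, the abundant member with the lowest value after Ubn2 depletion, Rps18, a small subunit gene with the run at its start site, Rps27 and its paralog Rps27l, Rpl28, which passed no test, and the paralog Rpl7l1, which has no such run.
Rps6, chr4:86857353-86857382, minus strand: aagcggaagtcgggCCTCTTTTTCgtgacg
Rps18, chr17:33955651-33955680, minus strand: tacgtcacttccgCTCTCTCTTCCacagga
Rps27, chr3:90213634-90213663, minus strand: atttccgctttcgCTCCTTTCCggcggtga
Rps27l, chr9:66946071-66946100, plus strand: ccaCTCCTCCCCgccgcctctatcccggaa
Rpl28, chr7:4792950-4792979, plus strand: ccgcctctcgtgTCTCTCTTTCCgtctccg
Rpl7l1, chr17:46782642-46782671, minus strand: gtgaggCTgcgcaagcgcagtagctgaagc
The 16th base of each is the RefSeq start site, which for Rps6 lay 45 bases from the GENCODE start and for the others between 0 and 25 bases from it. A run of these letters is a description of the window and not a mapped start of the mRNA.

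Counts on genes totalled 19710040 to 32706053 per library, and every one of the 87 genes had at least 1 count in every library. Levels are given as CPM, counts scaled to a common library total with edgeR's TMM factors, and standard errors (SE) are those of the fitted log2 fold change. The targeted genes fell in their own groups, with log2 fold changes of -3.22 for Hira, -1.03 for Ubn1 and -0.90 for Ubn2, so Ubn1 and Ubn2 mRNA remained at close to 50% of control. The 6 pluripotency markers (Pou5f1, Sox2, Nanog, Klf4, Esrrb and Zfp42) were all present in every library and summed to 3520 to 3781 CPM. In edgeR (adjusted p under 0.05) 1 of them was lower and 1 higher after Hira depletion, and the same counts held after Ubn2 depletion. These shares of 16.7% compare with 17.3% and 17.6% of all genes after Hira and 19.1% and 20.0% after Ubn2 depletion. After Ubn1 depletion 0 were lower and 0 higher. Markers of other cells moved with the groups. The 10 muscle and mesoderm genes summed to 13.6 to 20.6 CPM in 6 libraries, with at most 2 of them at 0. They summed to 295 and 185 CPM after Ubn2 depletion, where 8 of 10 were higher and 1 lower in edgeR (adjusted p under 0.05). This compares with 20.0% and 19.1% of all genes. After Hira depletion 1 of the 5 tested was lower and 0 higher, against 17.3% and 17.6% of all genes. The 14 genes of the 2-cell-like state summed to 11.4 and 5.19 CPM in controls, where 3 and 4 of them were at 0. In every depleted library they summed to at least 23.2 CPM. The 8 trophoblast markers summed to 124 and 124 CPM in controls and 186 and 166 in the Hira libraries. The Ubn1 libraries had 123 and 126 CPM and the Ubn2 libraries 124 and 116. The 9 primitive endoderm markers summed to 172 and 176 CPM in controls and 220.4 and 223 in the Hira libraries. They had 166 and 185 CPM in the Ubn1 libraries, and 161 and 150, below both controls, in the Ubn2 libraries. In edgeR at an adjusted p under 0.05, 2 of 6 tested trophoblast markers were lower and 1 higher with Ubn2 depleted, against 19.1% and 20.0% of all genes. With Hira depleted 4 of 6 were higher and 0 lower, against 17.6% and 17.3%. With Ubn1 depleted 1 of 5 was lower and 0 higher, against 3.62% and 4.14%. Of 8 tested primitive endoderm markers, beside the same shares of all genes, 2 were lower and 1 higher with Ubn1 depleted. With Hira depleted 3 of them were higher and 0 lower, and with Ubn2 depleted 1 was lower and 0 higher. The part of these cells in the results below was not tested, and in bulk libraries fewer cells of a type and less RNA per cell cannot be told apart.

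One library stood apart in the ribosomal protein genes themselves. Over the 83 members that averaged at least 10 CPM, the log2 ratio of replicate 2 to replicate 1 had an SD over genes of 0.060 in controls, 0.064 after Hira depletion and 0.071 after Ubn2 depletion. After Ubn1 depletion that SD was 0.21, with gaps from -0.46 for Rps27 to 0.64 for Rps29 and a median of 0.19. No member differed by more than 0.25 between replicates in the other 3 groups, and 34 did between the Ubn1 libraries. For 10272 other genes that also averaged at least 10 CPM, the robust SD of the same ratio was 0.18 after Ubn1 depletion. It was 0.13 to 0.15 in the other groups. On that robust scale the members had 0.20 after Ubn1 depletion and 0.039 to 0.058 in the other groups. The other genes were not matched to the members in level, and 81 members reached 100 CPM in controls. Whether members varied less than equally abundant genes was therefore not tested. Replicate 2 of Ubn1 is the library whose profile across members departs from the other depleted libraries, as the map of members by library shows. The members' medians in comparisons with Ubn1 are therefore given with and without it. Other Ubn1 values are from both libraries unless stated.

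In control ESCs these genes were abundant, and 81 of the 87 exceeded 100 CPM. Scaled to coding length, the 77 coding members other than the paralogs discussed with their partners had a median of 2246 CPM per kilobase, with the middle 50% between 1655 and 2954. Rplp1, a stalk protein, had 6926 CPM per kilobase, Rps12 5222 and Rps18 4321, while Rps3a1 had 657 and Rps27 813. Rpl41 headed the order with 12154, but its coding sequence has only 75 bases and counts on the untranslated ends enter the value too. The coding paralogs lay at the low end, with 653 for Rpl36al, 573 for Rps27l, 263 for Rpl7l1, 274 for Rpl39l, 143 for Rpl22l1 and 2.12 for Rpl3l, the striated muscle form of Rpl3. Rpl29, which is not one of these paralogs, had 532, below Rpl36al and Rps27l.

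The whole set took up a smaller share of the counts after each depletion. It held 9.12 and 8.78% of all gene counts in controls and 8.08 and 7.46% in the Hira libraries. The Ubn1 libraries gave 7.73 and 8.66% and the Ubn2 libraries 6.90 and 7.27%. As means this was 8.95% ± 0.24 in controls, 7.77% ± 0.44 after Hira, 8.20% ± 0.66 after Ubn1 and 7.09% ± 0.26 after Ubn2 depletion (SD, n = 2 each). The Hira and Ubn2 libraries all lay below both controls, as did the Ubn1 libraries, and Ubn1 replicate 2 came nearest to them. No test was made on these shares, because 2 libraries against 2 cannot give an exact two-sided p below 0.333. The division between the subunits moved little. The large subunit held 59.3 and 59.3% of the members' counts in controls and 58.7 and 58.9% after Hira depletion. It held 58.8 and 57.8% after Ubn1 and 58.0 and 58.3% after Ubn2 depletion, so every depleted library lay slightly below both controls.

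**Figure D1:**
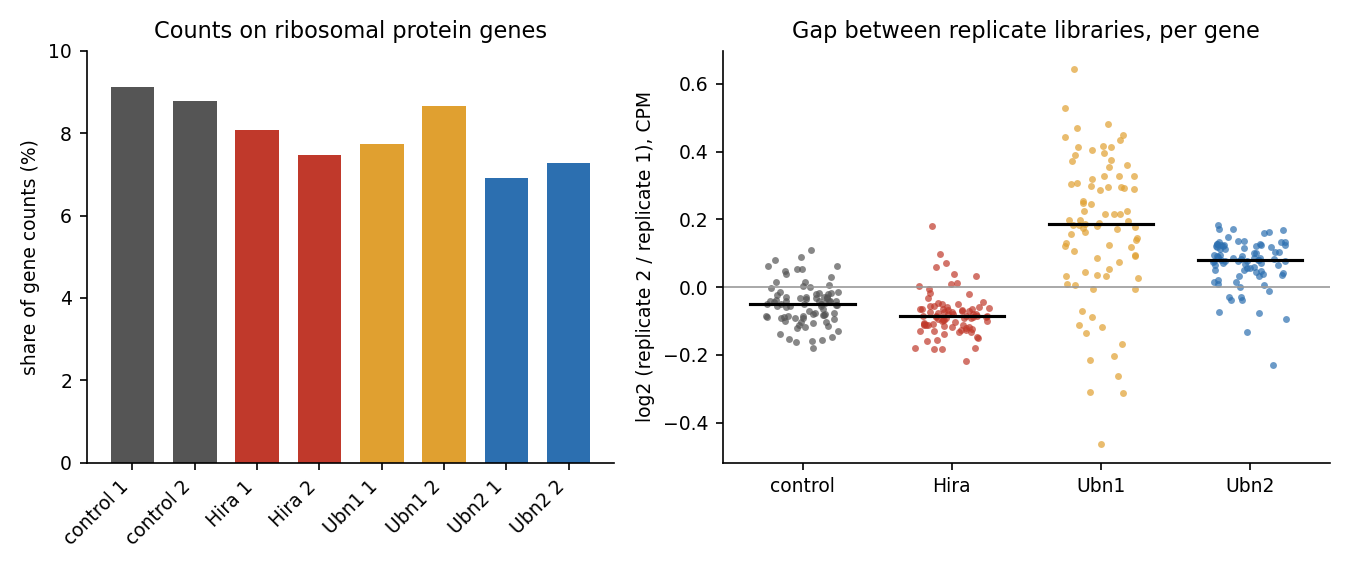
The left panel plots, for each of the 8 libraries, the percentage of all gene counts that fell on the 87 ribosomal protein genes; the right panel plots the log2 ratio of replicate 2 to replicate 1 in CPM for the 83 genes above 10 CPM, 1 point a gene, with the median as a black line. The share runs from 9.12% in control replicate 1 to 6.90% in Ubn2 replicate 1, and the Ubn1 replicates are spread from -0.46 to 0.64 where the other pairs stay within 0.25 of 0.

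After Hira depletion the ribosomal protein mRNAs fell together by a small amount. Of the 86 members with enough counts to be tested, 72 were lower than in controls and 0 higher (edgeR's quasi-likelihood test, adjusted p under 0.05), where 17.3% of all 19035 genes tested were lower and 17.6% higher. Their median log2 fold change was -0.33, a median change of -20.3%, with the middle 50% of members between -0.41 and -0.26, while the median of all genes was 0.011. None passed the 1.5-fold threshold of the study in addition, against 5.4% of all genes in that direction, and 1 to 4 did when a single library was left out. In 82 of the 86 both Hira libraries lay below both controls, which held for 31.4% of all genes. Large and small subunit genes had similar medians, with 43 of 53 lower at a median of -0.34 and 29 of 33 lower at -0.32.

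The lowest values after Hira depletion belonged to Rpl37a and Rpl36a of the large subunit and to Rps27 of the small subunit. Rpl37a had 604 and 609.8 CPM in controls and 409 and 410.0 after Hira depletion, a log2 fold change of -0.58 (SE 0.072, adjusted p = 3.31e-06). Rpl36a went from 730.2 and 699 to 514 and 461 CPM, a log2 fold change of -0.57 (SE 0.078, adjusted p = 1.02e-05). Rps27, a zinc-binding protein of the small subunit, went from 211 and 199 to 147 and 138 CPM, a log2 fold change of -0.54 (SE 0.076, adjusted p = 1.45e-05). In each of the 3 the groups did not overlap and the fall exceeded the gap between replicates. At the other end, Rps28 had 600.4 and 622 CPM in controls and 591 and 578 after Hira depletion (-0.081, adjusted p = 0.422), and did not pass the test. The pseudogene Rpl32l had the highest fitted value, 0.29, from under 1 CPM in every Hira and control library.

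Other genes with short transcripts, a length the members share (median 681 bases for coding members), also had lower values in this comparison. Among other genes above 10 CPM, the shortest 20% by transcript length changed by -0.14 after Hira depletion in the median, and the longest 20% by 0.0043 (log2). The corresponding medians of the shortest 20% were -0.036 after Ubn1 and -0.044 after Ubn2 depletion. The part of transcript length in the members' values was not tested.

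After Ubn2 depletion the set fell by about as much. Of 86 members, 70 were lower and 1 higher, where 19.1% of the 18219 genes tested were lower and 20.0% higher. The median log2 fold change was -0.38 (a change of -23.2%) and the middle 50% lay between -0.47 and -0.26, against a median of -0.0041 for all genes. Both Ubn2 libraries lay below both controls in 77 members, as in 34.9% of all genes. Among large subunit genes 45 of 53 were lower, at a median of -0.40, and among small subunit genes 25 of 33, at -0.33. Only 3 passed 1.5-fold as well, Rps6, Rpl22 and the pseudogene Rpl6l, where 8.75% of all genes did so in that direction. That count was 1 without control replicate 1 and 9 without control replicate 2, and 0 without Ubn2 replicate 1 and 11 without Ubn2 replicate 2.

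Rps6, the small subunit protein that S6 kinases phosphorylate downstream of mTOR, had 1711 and 1645 CPM in controls and 1054 and 1132 after Ubn2 depletion. This was a log2 fold change of -0.62 (SE 0.068, adjusted p = 3.78e-07), and both Ubn2 libraries lay far below the controls. Rpl22, a large subunit protein that can be lost without stopping translation, went from 459 and 425 to 285 and 302 CPM, a log2 fold change of -0.59 (SE 0.073, adjusted p = 1.70e-06). Rpl6l, an intronless copy of Rpl6, went from 3.60 and 3.43 to 2.02 and 2.29 CPM at -0.70 (SE 0.26, adjusted p = 0.0384), and the call was lost with DESeq2 in place of edgeR and when any library was left out. Rpl22 fell by more than the gap between replicates, while Rpl6l sat at a few CPM. The 1 member that rose was Rps4l, from 487 and 506 to 610.1 and 595 CPM, at 0.28 (SE 0.07, adjusted p = 0.00322). Rpl7l1, at 198 and 191 CPM in controls and 218 and 218 after Ubn2 depletion, had the next highest fold change of the abundant members, 0.16, adjusted p = 0.0614.

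**Figure D2:**
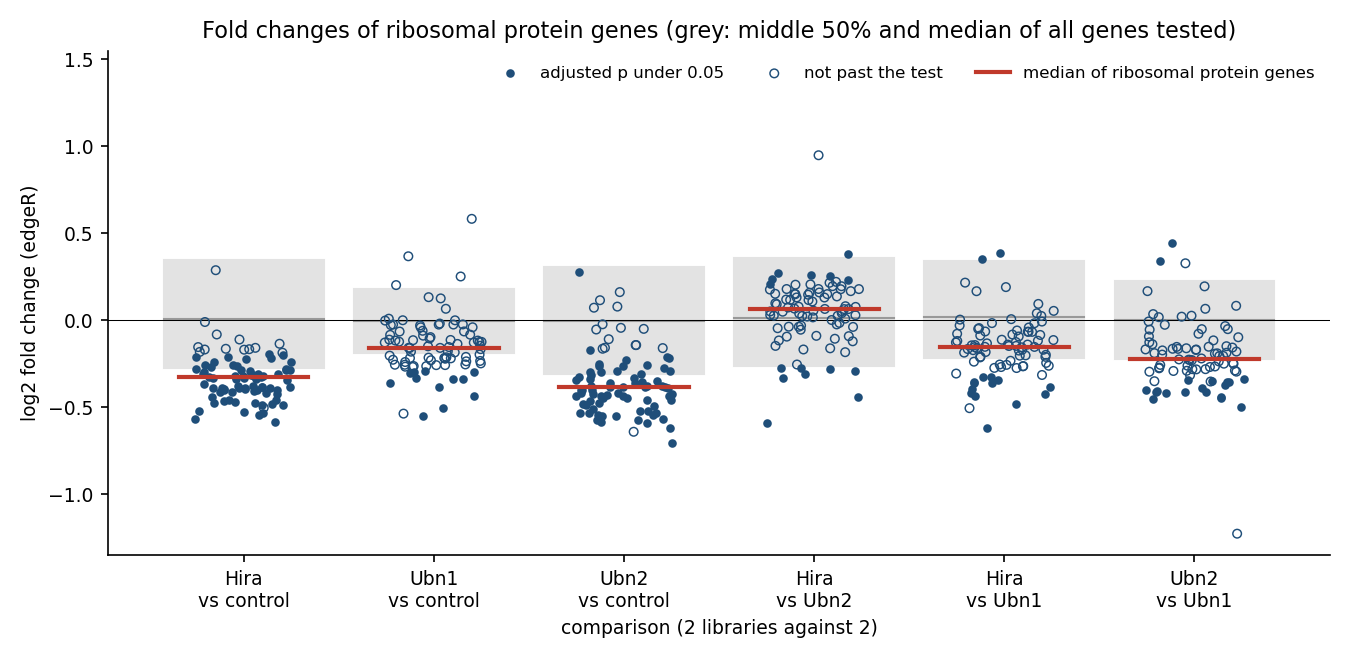
Each point is the log2 fold change of 1 of the 86 tested ribosomal protein genes in the named comparison of 2 libraries with 2, filled where the adjusted p was under 0.05; the red line is their median and the grey box holds the middle 50% of all genes tested with their median. The members' medians lie at -0.33 after Hira, -0.16 after Ubn1 and -0.38 after Ubn2 depletion, below the grey medians near 0, and at 0.065 in the direct comparison of Hira with Ubn2 depletion.

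After Ubn1 depletion fewer members passed the test. There were 12 lower and 0 higher among 86, where 3.62% of the 18373 genes tested were lower and 4.14% higher, and the median log2 fold change was -0.16. Both Ubn1 libraries lay below both controls in 46 members, as in 24.8% of all genes, and none passed 1.5-fold, against 1.56% of all genes in the lower direction. Without Ubn1 replicate 2, which stands apart in these genes, the members' median was -0.25, and without Ubn1 replicate 1 it was -0.073. It was -0.12 without control replicate 1 and -0.19 without control replicate 2. Tests in such fits assume that the lone library varies like the other group. The count of 12 depended on each of the 4 libraries. The lower members were 11 large subunit genes (Rpl4, Rpl5, Rpl6, Rpl11, Rpl13a, Rpl22l1, Rpl23a, Rpl24, Rpl35, Rpl39 and Rpl39l) and Rps25.

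The lowest values after Ubn1 depletion were those of 2 paralogs. Rpl22l1, the paralog of Rpl22, had 55.3 and 49.5 CPM in controls and 37.0 and 34.8 after Ubn1 depletion, a log2 fold change of -0.55 (SE 0.11, adjusted p = 0.00113). Rpl39l, a paralog of Rpl39 best known from the male germ line, went from 44.5 and 39.3 to 28.6 and 30.6 CPM at -0.50 (SE 0.11, adjusted p = 0.00418). In both genes the Ubn1 replicates lay close together and below the controls, and without Ubn1 replicate 2 the log2 fold changes were -0.50 and -0.55. Without control replicate 1 both calls were lost, at -0.46 (adjusted p = 0.0687) and -0.41 (adjusted p = 0.158). Other genes split between the replicates. Rps27 had 199 and 144 CPM in Ubn1 replicates 1 and 2, beside 211 and 199 in controls. Rps29, a zinc-binding protein of the small subunit chosen for its gap, had 535 and 834, beside 587 and 599. Rplp2 had 791 and 1079.9, beside 832 and 869, so replicate 2 was the lower library for Rps27 and the higher one for Rps29 and Rplp2.

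**Figure D3:**
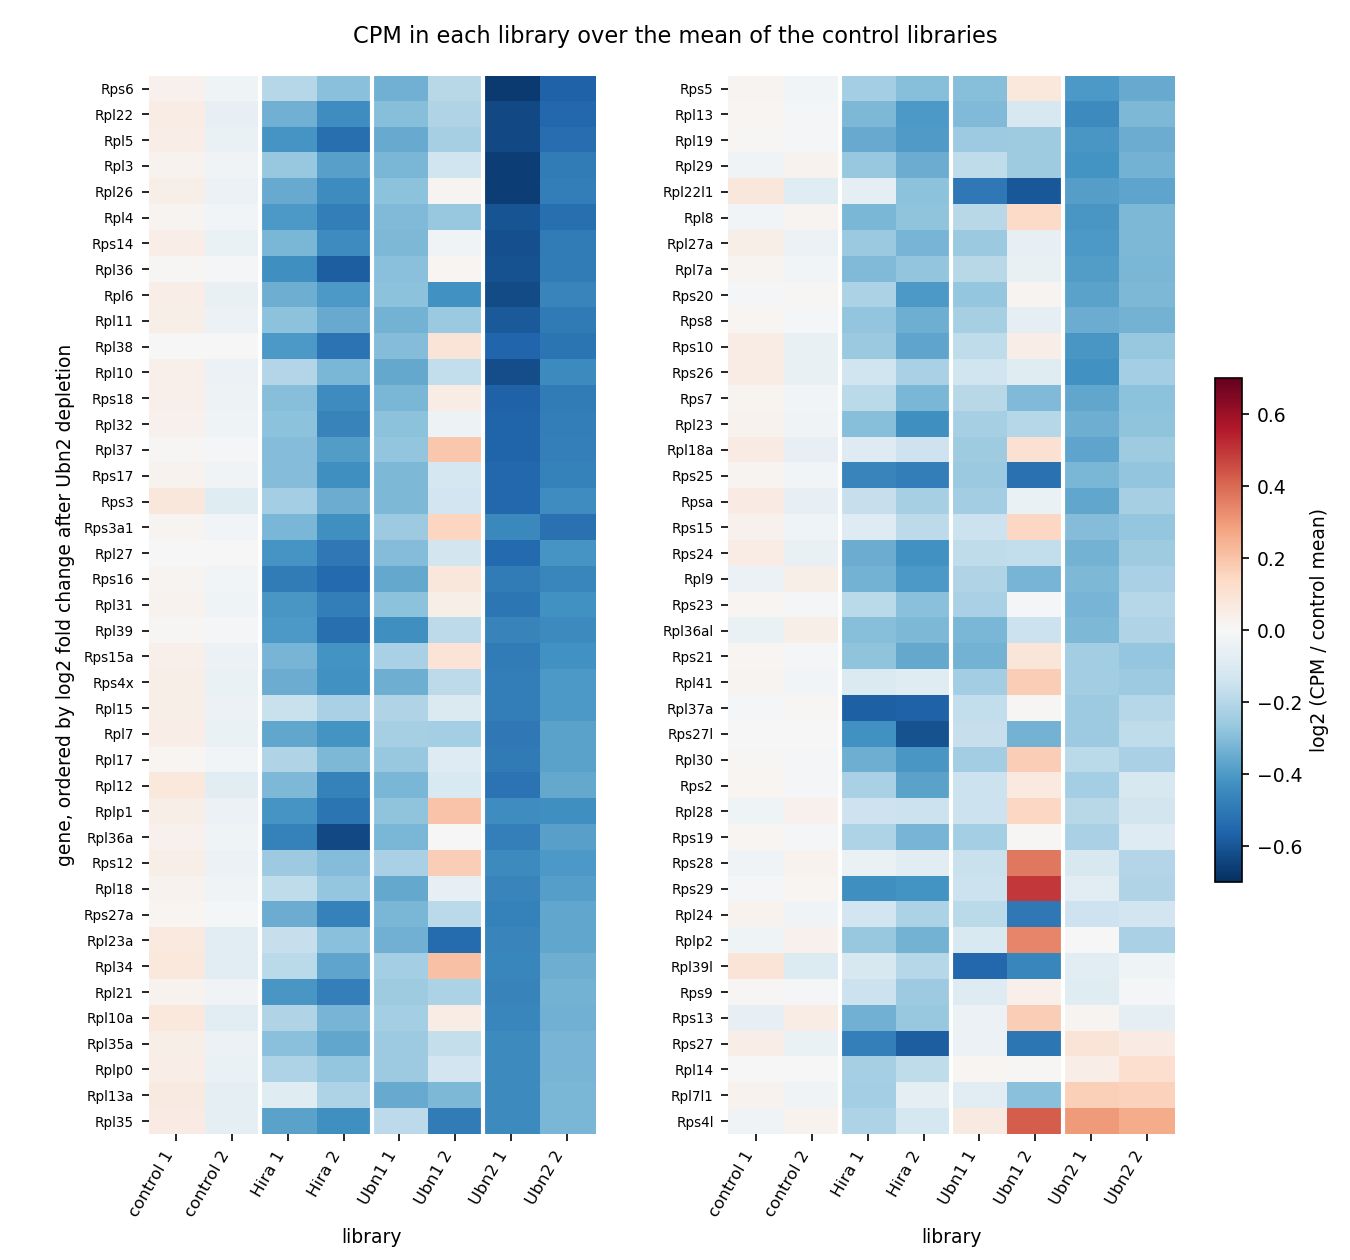
The map shows, for 82 of the 83 ribosomal protein genes above 10 CPM (rows, ordered by their fold change after Ubn2 depletion from Rps6 to Rps4l) and the 8 libraries (columns), the log2 ratio of CPM to the mean of the control libraries, blue for lower and red for higher. Nearly all cells of the Hira and Ubn2 libraries and of Ubn1 replicate 1 are blue, while Ubn1 replicate 2 mixes blue cells (Rpl22l1, Rpl23a, Rps27) with red ones (Rps29, Rps28, Rps4l).

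Rpl5 and Rpl11 bind 5S rRNA and form with it the particle that binds Mdm2 when ribosome assembly stalls. Rpl5 had 1562 and 1466 CPM in controls, 1135 and 1050.3 after Hira (-0.49, adjusted p = 4.60e-05), 1184 and 1286 after Ubn1 (-0.30, adjusted p = 0.0446) and 978 and 1045 after Ubn2 depletion (-0.58, adjusted p = 1.05e-06, each a log2 fold change against control). Rpl11 had 872 and 822 CPM in controls, 695 and 663 after Hira (-0.34, adjusted p = 0.00144), 673 and 708 after Ubn1 (-0.30, adjusted p = 0.0409) and 563 and 601 after Ubn2 depletion (-0.54, adjusted p = 4.16e-06). No depleted library overlapped the controls in either gene. The 3 comparisons share their control libraries, and the Ubn1 calls of both genes were lost when either control was left out. Without Ubn1 replicate 2, which was singled out by its values in the members, the log2 fold changes were -0.36 for Rpl5 and -0.33 for Rpl11. Without Ubn1 replicate 1 the median of all members was -0.073. Mdm2 itself, the p53 ligase that this particle inhibits, had 90.1 and 92.5 CPM in controls and rose to 147 and 133 after Hira (0.60, adjusted p = 5.76e-06) and 167 and 165 after Ubn2 depletion (0.86, adjusted p = 2.20e-09). Whether the level of Mdm2 mRNA bears on Rpl5 and Rpl11 was not tested.

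The stalk of the large subunit, which recruits the translation GTPases, is made of Rplp0, Rplp1 and Rplp2. All 3 were lower after Hira depletion, and Rplp0 and Rplp1 after Ubn2 depletion. Rplp0, often used as a reference gene in RT-qPCR, had 2989 and 2804 CPM in controls, 2498 and 2399.6 after Hira (-0.26, adjusted p = 0.00943), 2426 and 2639.8 after Ubn1 (-0.20, adjusted p = 0.211) and 2126 and 2315 after Ubn2 depletion (-0.38, adjusted p = 7.30e-05). Rplp1 had 2434 and 2303 CPM in controls, 1780.3 and 1662 after Hira (-0.48, adjusted p = 4.77e-05) and 1753 and 1761 after Ubn2 depletion (-0.43, adjusted p = 1.49e-05). Rplp2 went from 832 and 869 to 709 and 677 CPM after Hira depletion (-0.31, adjusted p = 0.00236), while its Ubn2 libraries had 853 and 727 and did not pass the test (-0.11, adjusted p = 0.287). For Rplp0 the Hira value was -0.13 (adjusted p = 0.156) when libraries were scaled by their totals alone and -0.22 (adjusted p = 0.174) without control replicate 1. Its Ubn1 value was -0.26 without Ubn1 replicate 2.

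On the small subunit, Rpsa, also known as a laminin receptor, had 3073 and 2839 CPM in controls, 2647 and 2516 after Hira (-0.21, adjusted p = 0.0325) and 2296 and 2516 after Ubn2 depletion (-0.30, adjusted p = 0.00105). Rps19, the gene most often mutated in Diamond-Blackfan anaemia, had 600.3 and 589 CPM in controls, 512 and 474 after Hira (-0.29, adjusted p = 0.00504) and 508 and 558 after Ubn2 depletion (-0.16, adjusted p = 0.0875). Rps3a1 went from 527 and 514 to 417 and 386 after Hira (-0.39, adjusted p = 3.84e-04) and 381 and 362 CPM after Ubn2 depletion (-0.49, adjusted p = 1.34e-05). Rps27a, which is made as a fusion with ubiquitin, went from 778 and 761 to 605 and 555 (-0.42, adjusted p = 1.84e-04) and 554 and 599 (-0.42, adjusted p = 8.51e-05). In the large subunit Rpl38, which is needed for the translation of Hox mRNAs in the embryo, went from 348 and 349 to 264 and 244 (-0.47, adjusted p = 5.14e-05) and 237 and 245 (-0.53, adjusted p = 3.30e-06). In each of these the Hira and the Ubn2 libraries lay below both controls, although Rps19 did not pass the test after Ubn2 depletion and the Hira call of Rpsa was lost when either control library was left out. By library totals alone the Hira values were -0.16 (adjusted p = 0.0928) for Rps19 and -0.086 (adjusted p = 0.382) for Rpsa, while Rps3a1, Rps27a and Rpl38 still passed. After Ubn1 depletion none of the 5 passed the test. Without Ubn1 replicate 2, which was singled out by its values in the members, their log2 fold changes ran from -0.24 for Rps19 to -0.32 for Rps27a. Without Ubn1 replicate 1 the values of Rpl38 and Rps3a1 changed sign, and the median of all members was -0.073.

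Set directly against each other, Hira and Ubn2 depletion differed in few of these genes. Of 86 members 8 were lower and 7 higher after Hira depletion, where 17.2% of the 18563 genes tested were lower and 18.6% higher, and the median difference was 0.065. The count of higher members is the least stable, from 1 to 20 as single libraries were left out and 24 with totals alone as the scale. The clearest difference was Rps27, at 147 and 138 CPM after Hira and 218 and 213 after Ubn2 depletion. Its log2 difference of -0.59 (SE 0.073, adjusted p = 3.23e-05) was the 1 past 1.5-fold, where 5.61% of all genes were in that direction. Rps6 differed the other way, at 1459 and 1370.2 CPM after Hira and 1054 and 1132 after Ubn2 depletion, a log2 difference of 0.38 (SE 0.08, adjusted p = 0.00198). Rpl37a had 509 and 527 CPM after Ubn2 depletion, and its log2 difference was -0.33, adjusted p = 0.00346. Also lower after Hira depletion were Rps4l (-0.44, adjusted p = 5.60e-04), Rpl7l1 (-0.31, adjusted p = 0.00715) and Rps27l (-0.29, adjusted p = 0.0106). Rps27, Rps6, Rpl37a and Rps4l passed the test whichever of the 4 libraries was left out, and no other of the 15 did. Of members chosen after their values were seen, Rpl14, a large subunit protein, had 766 and 798 CPM after Hira and 929.6 and 976 after Ubn2 depletion (-0.28, adjusted p = 0.0123), beside 900.1 and 902 in controls, so its Ubn2 libraries lay above them. Rps13 had 355 and 373 and 454 and 430.1 (-0.27, adjusted p = 0.0130), beside 432 and 465. Rps29 completed the list of lower members, at 441 and 444 CPM after Hira and 563 and 513 after Ubn2 depletion (-0.27, adjusted p = 0.0145).

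Against Ubn1 depletion, more members were lower than higher in both other groups. After Hira depletion 13 were lower and 2 higher than after Ubn1 depletion (against 10.2% and 14.2% of the 18819 genes tested), at a median of -0.15. Without Ubn1 replicate 2 the median was -0.071 and fewer members were lower. After Ubn2 depletion 17 were lower and 2 higher than after Ubn1 depletion (against 7.98% and 8.6% of the 18205 genes tested), at a median of -0.22. Here too fewer were lower without Ubn1 replicate 2, at a median of -0.12. The 1 difference past 1.5-fold was that of Rps29 between Hira and Ubn1 depletion, -0.62, adjusted p = 0.00119, where 3.16% of all genes were lower past that threshold. Without Ubn1 replicate 2, in which Rps29 had its highest level, it was -0.27 with an adjusted p of 0.0672. Rpl22l1 and Rpl39l were the members higher after Hira than after Ubn1 depletion, at 0.39, adjusted p = 0.0122 and 0.35, adjusted p = 0.0228. Rpl39l was also higher after Ubn2 than after Ubn1 depletion (0.44, adjusted p = 0.00754), together with Rpl7l1 (0.34, adjusted p = 0.0183). Each of these 4 differences was lost when at least 1 of the 4 libraries was left out.

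The balance between a paralog and its partner differed between groups in several pairs. Rps4l lies on chromosome 6 as a single exon annotated as a transcribed processed pseudogene, while Rps4x on the X chromosome has 7 exons and codes for the small subunit protein. Rps4l took 22.2 and 24.0% of the counts of the pair in controls, 24.7 and 27.1% after Hira, 28.4 and 31.4% after Ubn1 and 34.1 and 32.2% after Ubn2 depletion. Rps4x had 1704 and 1604 CPM in controls and 1180.3 and 1252 after Ubn2 depletion (-0.44, adjusted p = 2.37e-05), so Rps4x fell where Rps4l rose. Their sequences are alike and the treatment of reads that match both places was not stated, so the level of Rps4l is uncertain.

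Rpl7l1 held 12.5 and 12.8% of the counts of Rpl7l1 and Rpl7 in controls, 13.7 and 15.7% after Hira, 13.9 and 12.2% after Ubn1 and 18.7 and 17.4% after Ubn2 depletion, with Rpl7 at 1383 and 1298 CPM in controls and 949 and 1033 after Ubn2 depletion (-0.44, adjusted p = 4.79e-05). Rps27l, a paralog of Rps27 that p53 can induce, held 40.6 and 42.1% of its pair in controls, 39.3 and 44.3% after Ubn1 and 35.7 and 37.4% after Ubn2 depletion. After Ubn2 depletion Rps27l was lower (-0.22, adjusted p = 0.0116), a call lost without Ubn2 replicate 1, and Rps27 not past the test (0.073, adjusted p = 0.425). After Hira depletion Rps27l fell with Rps27, from 144 and 144 to 108 and 94.6 CPM (-0.53, adjusted p = 3.10e-05), and its share stayed at 42.2 and 40.8%. Rpl39l held 12.7 and 11.5% of its pair in controls, 14.4 and 14.7% after Hira, 11.3 and 10.2% after Ubn1 and 15.3 and 15.6% after Ubn2 depletion. Rpl22l1 held 10.8 and 10.4% in controls, 12.5 and 11.6% after Hira, 9.34 and 8.36% after Ubn1 and 12.3 and 11.8% after Ubn2 depletion. Both paralogs thus had their lowest shares in the Ubn1 libraries. Rpl22l1 itself was lower after Ubn2 depletion (-0.37, adjusted p = 0.00238), as Rpl22 was. Rpl36al, nearly identical in protein to Rpl36a, held 21.6 and 23.4% of its pair in controls, 24.7 and 26.6% after Hira, 22.6 and 20.7% after Ubn1 and 24.6 and 24.6% after Ubn2 depletion. It was lower after Hira (-0.32, adjusted p = 0.00199) and after Ubn2 depletion (-0.26, adjusted p = 0.00508), the latter lost without Ubn2 replicate 1. Rpl3l stayed at 2.48 and 2.70 CPM in controls and 2.99 and 2.65 after Ubn2 depletion, the libraries with the higher muscle marker sums.

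**Figure D4:**
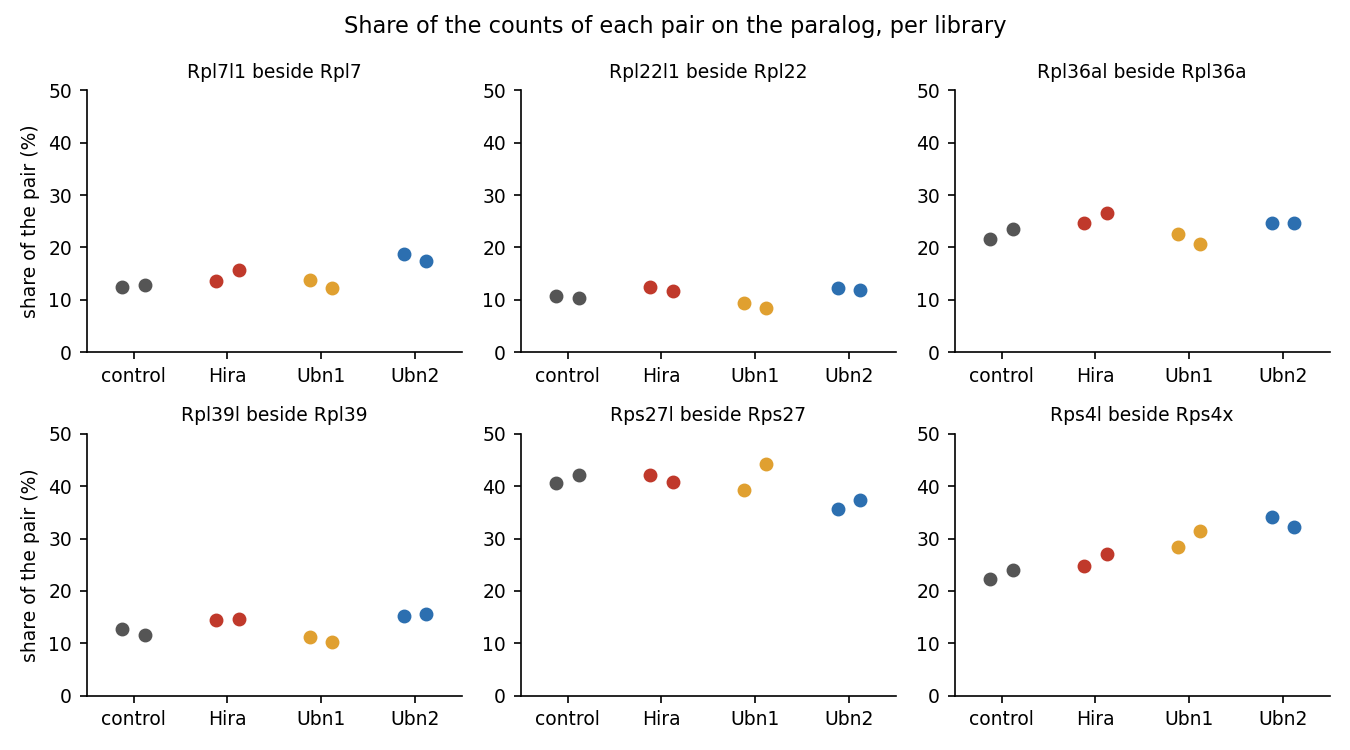
Each panel shows 1 pair, with the paralog's share of the summed counts of the pair (%) on the vertical axis for the 2 libraries of each condition. Rps4l climbs from 22.2% and 24.0% in controls to 34.1% and 32.2% after Ubn2 depletion and Rpl7l1 from 12.5% and 12.8% to 18.7% and 17.4%, while Rps27l goes down to 35.7% and 37.4%.

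Members with and without the sequence features had similar counts and medians. For the pyrimidine run the split was on at least 8 C or T anywhere in the window, not on a mapped terminal oligopyrimidine motif. Some runs end before the start site, as that of Rps27l does. Of the coding members with such a run, 22 of 25 were lower after Hira depletion (median -0.31) and 20 after Ubn2 depletion (median -0.38). Of those without, 32 of 38 were lower after Hira (median -0.33) and 31 after Ubn2 depletion (median -0.32). Of the windows printed above, those of Rps6 and Rpl28 both hold a long run. Rps6 had the lowest value of the abundant members after Ubn2 depletion, and Rpl28 had 756 and 789 CPM in controls and 675 and 706 after Ubn2 depletion (-0.16, adjusted p = 0.0708). Rps18 had 2018 and 1923 CPM in controls, 1602 and 1454 after Hira (-0.38, adjusted p = 5.39e-04) and 1332 and 1401 after Ubn2 depletion (-0.53, adjusted p = 1.87e-06). Among the coding members that host small nucleolar RNA genes, 27 of 30 were lower after Hira and 27 after Ubn2 depletion. Of the 53 that host none, 45 and 42 were. The differences between these subgroups were not tested.

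Of 3 ribosomal protein genes that the symbol rule leaves out, 3 were lower after Hira and 2 after Ubn2 depletion, where 17.3% and 19.1% of all genes were. After Ubn1 depletion 0 of the 3 were lower, where 3.62% of all genes were. Fau, a ubiquitin-like fusion with a small subunit protein, went from 649.8 and 645 CPM in controls to 424 and 422 after Hira (-0.63, adjusted p = 1.31e-06) and 488 and 509 after Ubn2 depletion (-0.38, adjusted p = 2.02e-04). Rack1, a scaffold on the small subunit, went from 3059 and 2941 to 2490.1 and 2401 (-0.31, adjusted p = 0.00221) and 2191 and 2374 (-0.40, adjusted p = 4.08e-05). The 300 symbols of ribosomal protein pseudogenes in the tables held 0.057% to 0.081% of all counts. Of those with enough counts, 10 of 62 were lower and 1 higher after Hira (median -0.37) and 8 of 51 lower and 1 higher after Ubn2 depletion (median -0.32). The lower ones were 16.1% after Hira and 15.7% after Ubn2 depletion, which is not above the 17.3% and 19.1% of all genes. Reads shared between a gene and its copies could not be told apart here.

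Hira and Ubn2 depletion differed in the other genes of the ribosome pathway. In a list of 109 ribosome biogenesis factors, which process ribosomal RNA and assemble subunits, 70 were lower and 3 higher after Hira depletion (median -0.32), and 19 lower and 27 higher after Ubn2 depletion (median 0.016). As shares lower and higher this was 64.2% and 2.75% after Hira depletion, against 17.3% and 17.6% of all genes, and 17.4% and 24.8% after Ubn2 depletion, against 19.1% and 20.0% of all genes. In the direct comparison 71 of the 109 were lower after Hira than after Ubn2 depletion and 0 higher, where 17.2% of all genes were lower and 18.6% higher, at a median of -0.30. Utp14a, a factor of the small subunit processome, had 93.9 and 79.8 CPM in controls, 45.1 and 44.1 after Hira and 81.1 and 77.8 after Ubn2 depletion (-0.82, adjusted p = 3.45e-06 for Hira against Ubn2). Ddx56, a helicase of large subunit assembly, had 58.6 and 60.4 in controls, 57.1 and 62.9 after Hira and 98.5 and 101 after Ubn2 depletion (-0.73, adjusted p = 9.01e-06). The Hira libraries were the lowest for Utp14a and the Ubn2 libraries the highest for Ddx56, without overlap. After Ubn1 depletion 4 of the 109 were lower and 2 higher, shares of 3.67% and 1.83% beside 3.62% and 4.14% of all genes.

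Of 15 genes of the RNA polymerase I machinery, which transcribes the large ribosomal RNAs, 8 were lower and 0 higher after Hira depletion, and 3 lower and 7 higher after Ubn2 depletion. The shares were 53.3% and 0% after Hira (all genes: 17.3% and 17.6%) and 20.0% and 46.7% after Ubn2 depletion (all genes: 19.1% and 20.0%), so the share lower after Ubn2 depletion was near that of all genes. Polr1a, its largest subunit, had 186 and 188 CPM in controls, 159 and 204 after Hira (-0.064, adjusted p = 0.627), 238 and 232 after Ubn1 (0.33, adjusted p = 0.0217) and 281 and 260.5 after Ubn2 depletion (0.53, adjusted p = 3.82e-06). Ttf1, its termination factor, had 40.3 and 34.2 in controls, 30.2 and 30.0 after Hira (-0.32, adjusted p = 0.0228) and 58.1 and 55.4 after Ubn2 depletion (0.61, adjusted p = 2.93e-05). Polr1c, a subunit shared with RNA polymerase III, was lower after Hira (-0.55, adjusted p = 1.03e-05) and after Ubn2 depletion (-0.23, adjusted p = 0.00798).

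Of 50 translation factors 27 were lower and 0 higher after Hira depletion, and 23 lower and 7 higher after Ubn2 depletion. These are 54.0% and 0% after Hira and 46.0% and 14.0% after Ubn2 depletion, where all genes had 17.3% and 17.6% and 19.1% and 20.0%, so the share higher after Ubn2 depletion was below that of all genes. Eif2s3x, a subunit of the factor that brings the initiator tRNA, had 237 and 225 CPM in controls, 118 and 123 after Hira (-0.95, adjusted p = 1.15e-08) and 178 and 162 after Ubn2 depletion (-0.44, adjusted p = 4.63e-05). Eif4g3, a scaffold of cap-dependent initiation, rose from 27.8 and 31.6 to 104 and 102 after Ubn2 depletion (1.79, adjusted p = 2.06e-12). Of 78 mitochondrial ribosomal proteins 43 were lower and 1 higher after Hira depletion (median -0.27), 15 lower and 9 higher after Ubn2 (median -0.03) and 3 lower and 0 higher after Ubn1 depletion. The lower share was 55.1% after Hira depletion, where 17.3% of all genes were lower. It was 19.2% after Ubn2 and 3.85% after Ubn1 depletion, near the 19.1% and 3.62% of all genes.

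Of 25 regulators of growth and of the p53 response, 10 rose and 4 fell after Hira depletion, and 12 rose and 1 fell after Ubn2 depletion. Those that rose made up 40.0% and 48.0%, against 17.6% and 20.0% of all genes. The share that fell after Hira depletion was 16.0%, near the 17.3% of all genes, and the 1 that fell after Ubn2 depletion was fewer than the 19.1% of all genes would give. Cdkn1a, the cell cycle inhibitor that p53 induces, had 65.4 and 63.8 CPM in controls, 93.8 and 79.7 after Hira (0.41, adjusted p = 9.34e-04), 65.2 and 75.1 after Ubn1 (0.12, adjusted p = 0.527) and 152 and 153 after Ubn2 depletion (1.24, adjusted p = 1.94e-11). Phlda3, another p53 target, had 48.1 and 43.4 CPM in controls, 97.1 and 84.1 after Hira (0.97, adjusted p = 1.01e-07), 60.6 and 68.1 after Ubn1 (0.49, adjusted p = 0.00235) and 84.5 and 85.8 after Ubn2 depletion (0.90, adjusted p = 2.76e-08). Both genes were highest in depleted libraries. Eif4ebp1, the translation repressor that mTOR inactivates, was the 1 that fell after Ubn2 depletion, from 331 and 333 to 178 and 206 CPM (-0.79, adjusted p = 6.11e-08). The part of these regulators in the levels of the ribosomal protein mRNAs was not tested.

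**Figure D5:**
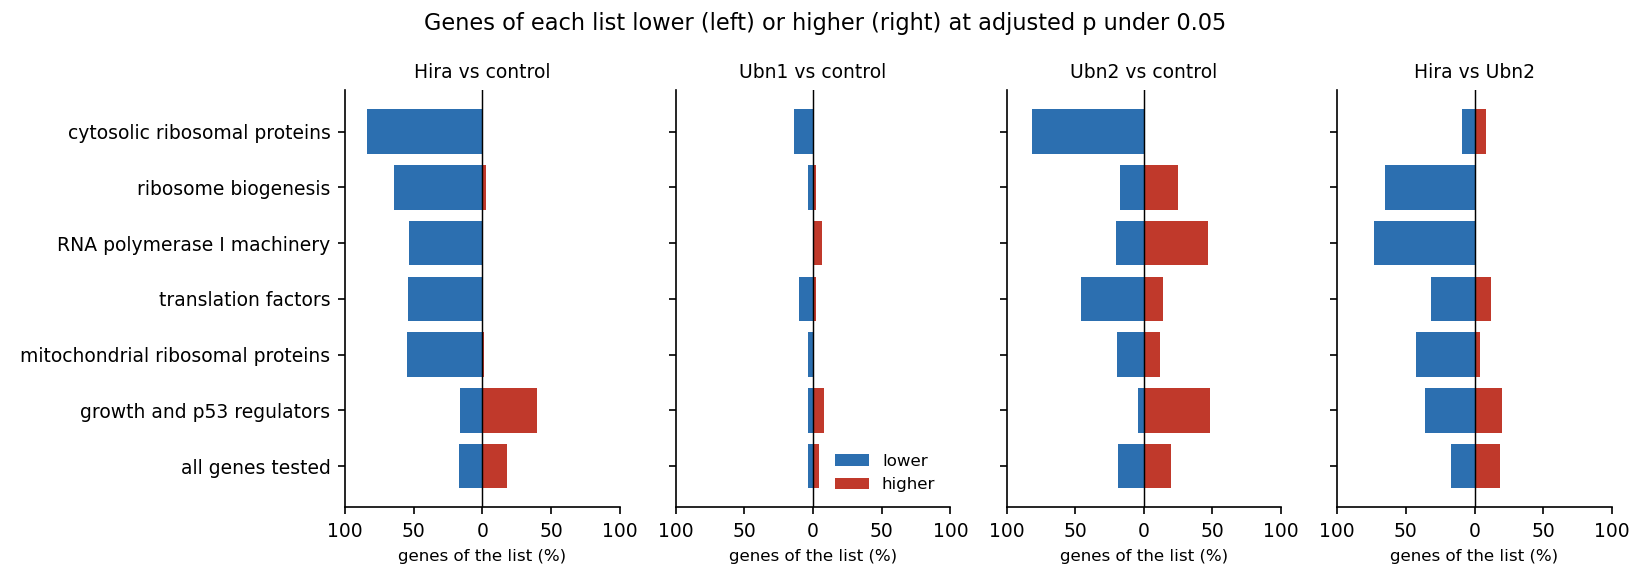
For each list of genes (rows) the bars show the percentage of its tested genes that were lower (blue, left) or higher (red, right) at an adjusted p under 0.05, in 3 comparisons with control and in Hira against Ubn2 depletion; the bottom row is all genes tested. Cytosolic ribosomal proteins lean left after both Hira (72 of 86) and Ubn2 depletion (70 of 86), whereas ribosome biogenesis factors lean left after Hira (70 of 109) and are split after Ubn2 depletion (19 lower and 27 higher).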

How the data were processed

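RNA-seq was measured in 8 libraries of mouse E14 ESCs, 2 per condition, grouped by their GEO titles. Per the submitters' notes and methods, the authors used Trim Galore for trimming, STAR for alignment (GRCm38) and featureCounts for counts per gene. Raw read counts were deposited without normalization in 3 tables of 55418 genes, each pairing 1 depletion with the same control libraries (0 differing control values). Tool versions, the strand setting and the handling of reads with several matches are not given in the sources used here, so near-identical copies and overlapping genes are uncertain.

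Each depletion was compared with control, and the depletions with each other, in edgeR 4.0.16 (R 4.3.3) with TMM factors (0.955 to 1.05), the filterByExpr filter and quasi-likelihood tests on the 4 libraries concerned. P-values were adjusted by Benjamini-Hochberg over all genes tested. A gene was lower or higher at an adjusted p under 0.05, and the study's 1.5-fold threshold was counted in addition. The study itself used DESeq2, which is an alternative here (1.42.0). CPM use the TMM factors of all 8 libraries, and SDs are over 2 libraries. 86 of the 87 members passed the filter in each comparison, and Rps12l1, under 1 CPM in every library, did not. Positions are from GENCODE M21 (GRCm38), all 87 symbols matching 1 gene each, and start sites from RefSeq (GRCm38.p6).

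The members and gene lists were chosen with earlier results of these data known. Genes named are those past 1.5-fold after a depletion, the 3 highest and 3 lowest fold changes per depletion, paralog pairs, 11 members with known roles, and up to 3 genes per list by adjusted p. Genes named outside that rule were chosen after their values were seen. The fits were first tested on simulated data for Hira depletion against control. There edgeR recovered 49% of 100 log2 changes of 0.5 and 83% of 100 changes of 1. The changed genes were drawn at random from expressed genes and not from the members. Other versions were limma 3.58.1, Python 3.11.15, numpy 2.4.6, pandas 2.3.3 and matplotlib 3.10.9. Depth was 19710040 to 32706053 counts per library, at which 3 counts are 9.17e-06% to 1.52e-05% of a library, for counting error only. The sequences of the proteins were not used here, and single values of 2 ribosomal protein genes are not reported here.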

Additional observations from a re-analysis of the deposited data

How the results depend on the processing

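The counts of lower members after Hira and Ubn2 depletion stayed within 1.5 times of the reported ones. Across the alternatives other than leaving out a library, 49 to 78 members were lower after Hira and 65 to 73 after Ubn2 depletion, with members lower on the median in every one of these. Leaving out each library in turn gave 52 to 74 lower members after Hira and 66 to 69 after Ubn2 depletion. The members past 1.5-fold then numbered 1 to 4 after Hira, 0 to 2 after Ubn1 and 0 to 11 after Ubn2 depletion, and the medians ran from -0.39 to -0.31, from -0.25 to -0.073 and from -0.44 to -0.33. After Ubn1 depletion 0 to 55 members were lower and 0 to 4 higher. For Hira against Ubn2 depletion 1 to 20 were higher, for Hira against Ubn1 depletion 3 to 35 lower and 0 to 3 higher at medians from -0.25 to -0.071, and for Ubn2 against Ubn1 depletion 1 to 55 lower and 0 to 4 higher at medians from -0.31 to -0.12. Where a group was left with 1 library, it was assumed to vary like the other group. The shares of all genes lower or higher in those fits were not counted, so their counts of members have no background beside them.

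Scaling by library totals without TMM factors moved the median of all genes after Hira depletion from 0.011 to 0.14 and that of the members to -0.20, with 49 still lower. It also gave 6 lower members after Ubn1, 2 higher and 1 past 1.5-fold after Ubn2 depletion, 24 higher at a median of 0.13 for Hira against Ubn2, and 7 lower for Hira against Ubn1 depletion. DESeq2's Wald test gave 22 lower members after Ubn1 depletion, 20 lower and 0 higher for Hira against Ubn1, and 27 lower for Ubn2 against Ubn1 depletion. With no filter on low counts 7 members passed 1.5-fold after Ubn2 depletion, 11 were higher for Hira against Ubn2, and 20 and 34 were lower for Hira and Ubn2 against Ubn1 depletion. DESeq2's test, DESeq2's size factors, no filter, or TMM factors set without the members and their pseudogenes each put 1 member past 1.5-fold after Hira depletion. All 8 libraries in one fit, without or with a replicate block, gave 21 lower members for Hira against Ubn1 and 30 for Ubn2 against Ubn1 depletion. The causes of these shifts were not tested.

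Replicate numbers in the labels do not say that libraries were made together, and libraries with the same number shared little of their departure from the group mean (correlations of -0.099 to 0.098 over 19264 genes), so the numbers were not taken as pairs. A replicate block gave 22 lower members after Ubn1 depletion, 2 higher for Hira against Ubn2 and 32 lower for Ubn2 against Ubn1 depletion, with 78 lower after Hira and 70 after Ubn2 depletion. Over the named members against control, 1035 values kept their sign and their side of the threshold under the alternatives, 48 came past it, 36 no longer passed and 11 changed sign. Those that changed sign did not pass the test in either fit. They were Rps28 after Hira depletion (0.044 by library totals) and others that changed sign when 1 library was left out. The ranges over left-out libraries were -0.40 to 0.013 for Rpl3l after Hira depletion, and -0.15 to 0.032 for Rpl39l and -0.22 to 0.0040 for Rplp2 after Ubn2 depletion. After Ubn1 depletion they were -0.082 to 1.00 for Rpl32l, -0.30 to 0.078 for Rpl38, -0.28 to 0.19 for Rplp1, -0.11 to 0.33 for Rplp2, -0.16 to 0.36 for Rps28 and -0.25 to 0.14 for Rps3a1. Calls lost when 1 library was left out were those of Rplp0, Rps6 and Rpsa after Hira, of Rpl5, Rpl11, Rpl22l1, Rpl39 and Rpl39l after Ubn1, and of Rpl36al, Rpl37a, Rpl6l and Rps27l after Ubn2 depletion. Scaling by library totals lost the calls of Rplp0, Rps6, Rps19 and Rpsa after Hira and of Rpl5, Rpl11 and Rpl39 after Ubn1 depletion. Adding the pseudogenes to the members, or taking mitochondrial genes out of the total, moved no library's share by more than the spread between replicates. A member that did not pass the test with 2 libraries per group was not shown to be unchanged.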
